A study of Mus musculus with 6 samples.

Results

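The platelet-derived and vascular endothelial growth factor genes examined here are 10 named members of 16266 genes in the deposited tables, taken as the rows whose symbol is Pdgfa, Pdgfb, Pdgfc, Vegfa, Vegfb or Vegfc (6 ligands) or Pdgfra, Pdgfrb, Flt1 or Kdr (4 receptors). They were measured by RNA sequencing in macrophages cultured from mouse bone marrow. The groups were 3 knockout (KO) libraries, in which the design text names Capns1 as the deleted gene, and 3 wild-type (WT) libraries. All 6 received lipopolysaccharide (LPS, a bacterial cell wall component) for 24 h, and no comparison with unstimulated cells was possible. The series title describes a deletion specific to myeloid cells. The driver of the deletion, the age of the animals and whether replicates came from separate animals or cultures are not given in the sources at hand, so p-values measure only the spread between these libraries, which may be technical.

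Platelet-derived growth factors are secreted dimers that bind receptor tyrosine kinases on mesenchymal cells such as fibroblasts, pericytes and smooth muscle cells. Pdgfra and Pdgfrb encode those receptors. Vascular endothelial growth factors have a related cystine-knot fold and act mainly on endothelial cells, through Flt1 and Kdr for Vegfa, through Flt1 for Vegfb and mainly through Flt4 for Vegfc. Macrophages are known as a source of both kinds of ligand in tissue repair, and Vegfa is a classical target of hypoxia-inducible factors.

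Total counts ranged from 32631163 to 40913819 per library. Capns1, which encodes the small regulatory subunit of calpains 1 and 2, had 298 to 370 counts in KO libraries and 17055 to 21331 in WT libraries, so each of the 3 KO libraries carried the loss, although the genotype field gives each of them a different Capns number. Macrophage markers summed to 44509 to 49754 CPM (the count scaled by the library total) in KO libraries and 44208 to 52162 CPM in WT libraries. The second principal component of all tested genes (15.9% of variance) set KO replicate 2, at -25.5, away from KO replicates 1 and 3, at 12.6 and 10.4. It also set WT replicate 3, at 23.2, away from WT replicates 1 and 2, at -8.21 and -12.4. Calls are therefore also given without these 2 libraries.

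A gene is termed called where the adjusted p of edgeR's quasi-likelihood test, adjusted over 12219 tested genes, was under 0.05. Of the 10 members, 6 were called: Pdgfa, Pdgfra and Vegfc were higher in KO, and Pdgfb, Vegfa and Kdr were lower. Among tested genes in general, 14.6% were called, 8.44% as higher and 6.21% as lower in KO. Each member passed the low-count filter, but Vegfc passed only through the KO libraries, with 2 of 3 WT libraries above the limit of 0.276 CPM. Leaving it aside, 5 of 9 members were called. The same 6 members had CPM ranges without overlap between the groups, against 33.6% of tested genes. Without KO replicate 2 and WT replicate 3, the count of called members was again 6, while calls over all genes numbered 3186 of 12275 tested, against 1790 of 12219 with 6 libraries.

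**Figure D1:**
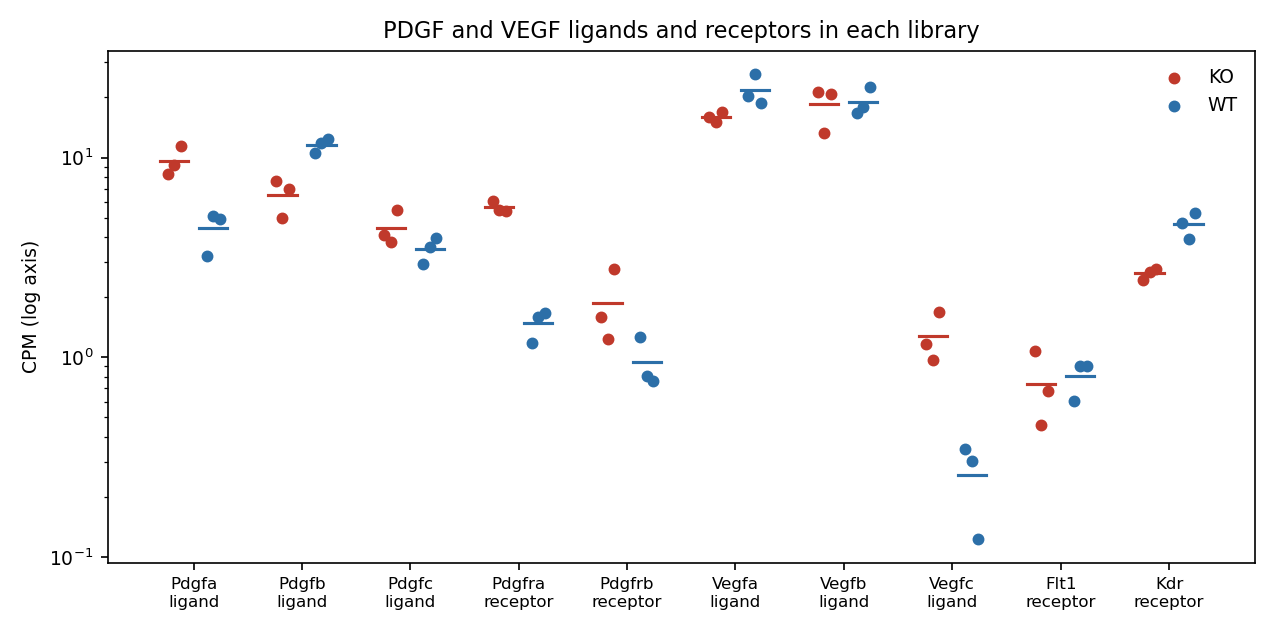
CPM of each member on a log axis, with 1 point per library (red KO, blue WT) and a line at each group mean (n = 3). The points of the groups are separate for Pdgfa, Pdgfb, Pdgfra, Vegfa, Vegfc and Kdr and overlap for Pdgfc, Pdgfrb, Vegfb and Flt1.

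Levels were compared between genes on the deposited FPKM scale, which divides the count by gene length and library total. In KO libraries the order from high to low was Vegfb (14.4 ± 3.50 FPKM), Vegfa (3.84 ± 0.221), Pdgfb (1.59 ± 0.339), Pdgfa (1.44 ± 0.249), Pdgfc (1.24 ± 0.253), Pdgfra (0.688 ± 0.0419), Vegfc (0.676 ± 0.197), Kdr (0.335 ± 0.0212), Pdgfrb (0.305 ± 0.130) and Flt1 (0.0529 ± 0.0227; SD, n = 3). In WT libraries the order was Vegfb (14.8 ± 2.45 FPKM), Vegfa (5.23 ± 0.930), Pdgfb (2.82 ± 0.225), Pdgfc (0.974 ± 0.141), Pdgfa (0.658 ± 0.154), Kdr (0.590 ± 0.0863), Pdgfra (0.180 ± 0.0315), Pdgfrb (0.155 ± 0.0461), Vegfc (0.137 ± 0.0631) and Flt1 (0.0579 ± 0.0125; SD, n = 3). The 3 PDGF ligands overlapped as neighbours in KO libraries (Pdgfb with Pdgfa, and Pdgfa with Pdgfc) but not in WT libraries. Pdgfra overlapped with Vegfc and Kdr with Pdgfrb in KO libraries. Pdgfa overlapped with Kdr, and Pdgfra, Pdgfrb, Vegfc and Flt1 each with the next, in WT libraries. Among all 16266 genes Vegfb ranked 3552 by mean FPKM in KO and 3478 in WT libraries, whereas Flt1 ranked 12739 in KO and 12404 in WT libraries. The 4 receptors lay below Vegfb, Vegfa, Pdgfb and Pdgfc in both groups.

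The windows upstream of an annotated start of 4 called members follow, because these genes differed between the groups. Each holds the 250 bases before the start site in RefSeq on GRCm38.p6, 5′ to 3′ on the gene's strand. Capitals mark matches, on either strand, to the GC box GGGCGG, the hypoxia core ACGTG or GCGTG, the AP-1 motif TGANTCA or the EGR1 motif GCGTGGGCG or GCGGGGGCG.
Pdgfa, chr5:138994945-138995194, minus strand: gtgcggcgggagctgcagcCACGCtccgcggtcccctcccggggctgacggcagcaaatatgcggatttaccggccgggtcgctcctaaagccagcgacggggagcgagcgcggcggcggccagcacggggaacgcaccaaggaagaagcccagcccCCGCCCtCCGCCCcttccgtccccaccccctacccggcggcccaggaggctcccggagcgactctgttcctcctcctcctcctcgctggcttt
Pdgfra, chr5:75152001-75152250, plus strand: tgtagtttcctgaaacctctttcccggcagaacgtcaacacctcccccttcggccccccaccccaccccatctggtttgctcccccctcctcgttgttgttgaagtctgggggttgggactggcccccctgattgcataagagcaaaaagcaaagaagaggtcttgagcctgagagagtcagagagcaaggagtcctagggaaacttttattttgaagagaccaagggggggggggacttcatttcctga
Vegfa, chr17:46032378-46032627, minus strand: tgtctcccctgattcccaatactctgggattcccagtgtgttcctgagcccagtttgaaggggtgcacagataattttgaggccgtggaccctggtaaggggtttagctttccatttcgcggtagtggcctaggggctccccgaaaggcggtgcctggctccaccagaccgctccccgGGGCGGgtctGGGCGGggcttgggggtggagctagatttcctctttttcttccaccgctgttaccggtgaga
Kdr, chr5:75978456-75978705, minus strand: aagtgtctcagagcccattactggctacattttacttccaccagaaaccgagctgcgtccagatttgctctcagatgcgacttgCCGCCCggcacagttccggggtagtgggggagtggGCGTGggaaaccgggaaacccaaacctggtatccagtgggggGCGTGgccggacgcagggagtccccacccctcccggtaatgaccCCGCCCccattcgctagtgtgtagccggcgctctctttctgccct
The Pdgfa window held 2 GC boxes, beginning 93 and 86 bases before the start, and 1 hypoxia core, GCGTG on the other strand, at 231 bases. Its GC content was 72.4%. The Vegfa window held 2 GC boxes, 72 and 62 bases before the start, and no hypoxia core, unlike the window of its further start. The Kdr window held 2 GC boxes and 2 hypoxia cores. No motif matched in the Pdgfra window, whose GC content was 54.4%. Of 32851 RefSeq windows of this length, 32.7% held a GC box, 16.6% ACGTG, 28.2% GCGTG, 6.75% the AP-1 motif, 0.536% GCGTGGGCG and 2.57% GCGGGGGCG. The GC box and GCGTG were thus present in the window of a gene that rose (Pdgfa) and of one that fell (Kdr). The Pdgfa window lies within the span that GENCODE gives the gene, and a further RefSeq start of Pdgfa has a window with 1 GC box. The window of a further RefSeq start of Vegfa, within the gene, held 1 GC box, 1 ACGTG and 1 GCGTG, the cores at 211 and 218 bases before that start. The Vegfc window held 2 GC boxes, at 243 and 232 bases before its start, and no other motif. RefSeq windows matched 8 of the 10 members, and none matched Pdgfb, which was called, or Pdgfrb. Which annotated start the cells used was not measured.

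Among PDGF ligands, Pdgfa and Pdgfb moved in opposite directions. Pdgfa, the A chain, which binds Pdgfra, lies on chromosome 5 at 138976014 to 138997370 (GRCm38, the assembly of mm10). It had 8.23, 9.22 and 11.5 CPM in KO libraries, against 3.23, 5.10 and 4.94 CPM in WT libraries. The lowest KO library lay above the highest WT library. This was a 2.14-fold rise, with a 95% confidence interval of 1.57 to 2.91 (log2 fold change 1.10 ± 0.20 SE, adjusted p = 0.00389). It was called under each of 18 alternative settings, with log2 fold changes from 0.55 to 1.22. The lowest came from log2(FPKM + 1), where the added 1 shrinks the change of a gene at this level. The annotated antisense gene 6330403L08Rik overlaps Pdgfa, and 23.1% of the 32-base words of Pdgfa transcripts recur in transcripts of other genes, led by that antisense gene. Whether counting used strand is not stated in the sources at hand, so reads of the 2 genes may not be separate.

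Pdgfb, the B chain, which binds both receptors and recruits pericytes to vessels, lies on chromosome 15 at 79995874 to 80014977. It had 7.66, 4.97 and 6.96 CPM in KO libraries, against 10.6, 11.8 and 12.4 CPM in WT libraries. No KO library reached the lowest WT library. The KO level was 0.553 of the WT level, with an interval of 0.429 to 0.713 (log2 fold change -0.86 ± 0.17 SE, adjusted p = 0.00552). The call was kept under each of 18 alternatives, with log2 fold changes from -0.97 to -0.57. The annotated antisense gene Gm41361 overlaps Pdgfb, and 0% of the 32-base words of Pdgfb transcripts recur in transcripts of other genes.

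Pdgfc, whose product needs proteolytic release of its growth factor domain before it binds Pdgfra, lies on chromosome 3 at 81036416 to 81214040. It had 4.09, 3.79 and 5.49 CPM in KO libraries and 2.94, 3.58 and 3.94 CPM in WT libraries. The groups overlapped, and Pdgfc was not called (log2 fold change 0.32 ± 0.21 SE, adjusted p = 0.349). Its 95% confidence interval of -0.13 to 0.78 does not show that the level was the same. Without KO replicate 3 the log2 fold change was 0.17, and without WT replicate 1 it was 0.22. The annotated antisense gene Gm16000 overlaps Pdgfc, and 2.5% of the 32-base words of Pdgfc transcripts recur in transcripts of other genes.

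The sum of the 3 PDGF ligands was 4.27 ± 0.648 FPKM in KO and 4.45 ± 0.511 FPKM in WT libraries (SD, n = 3; two-sided exact permutation test p = 0.8), but its make-up differed. Pdgfa made up 29.0, 37.7 and 34.7% of it in KO libraries, against 12.4, 16.4 and 15.2% in WT libraries. Pdgfb made up 44.0, 33.2 and 34.3% in KO libraries, against 66.4, 62.0 and 62.2% in WT libraries. Pdgfc made up 29.1 ± 2.03% in KO and 21.8 ± 0.763% in WT libraries (SD, n = 3). None of these shares overlapped between the groups, and each gave p = 0.1, the smallest that an exact permutation test of 3 against 3 allows. The ratio of Pdgfa to Pdgfb was 0.658, 1.14 and 1.01 in KO libraries, against 0.187, 0.264 and 0.244 in WT libraries. These shares and ratios are formed within a library and do not depend on scaling between libraries.

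**Figure D2:**
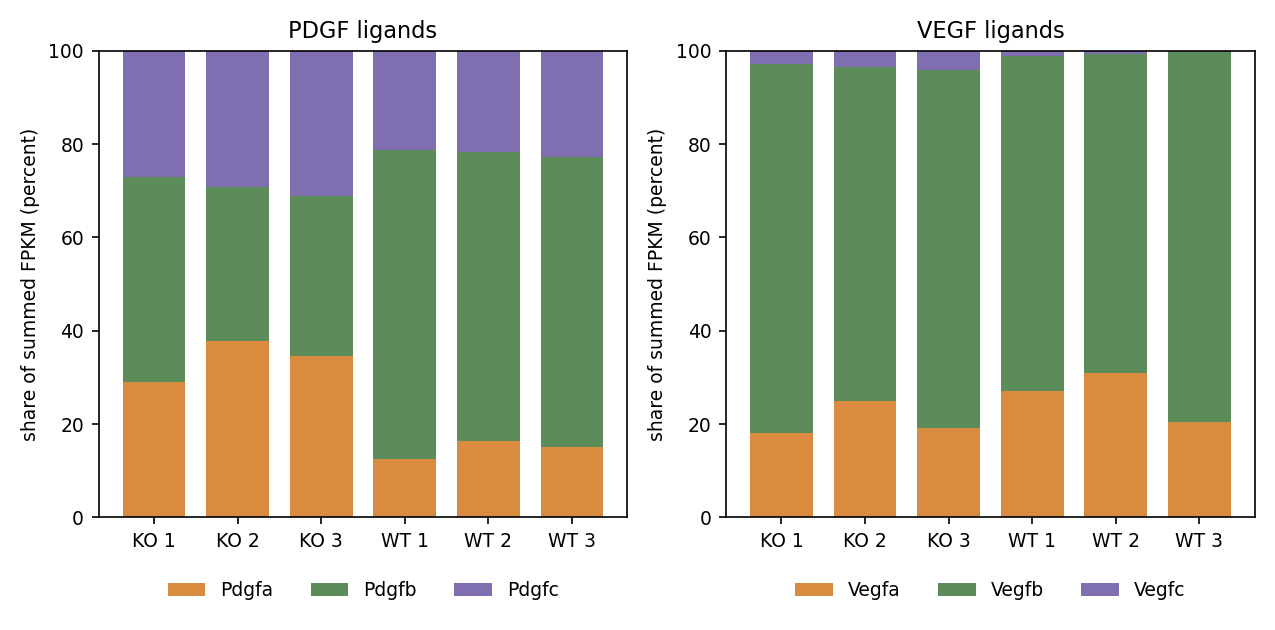
Share of each ligand in the summed FPKM of the 3 PDGF ligands (left) and the 3 VEGF ligands (right), with 1 stacked bar per library. Pdgfb holds 33.2 to 44.0% of PDGF ligand FPKM in KO libraries and 62.0 to 66.4% in WT libraries, and Vegfb is the largest VEGF share in each library.

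Of the PDGF receptors, Pdgfra rose and Pdgfrb was not called. Pdgfra, the receptor for A, B and C chains and a widely used marker of fibroblasts and mesenchymal progenitors, lies on chromosome 5 at 75152292 to 75198215. It had 6.05, 5.48 and 5.42 CPM in KO libraries, against 1.18, 1.59 and 1.66 CPM in WT libraries. The KO values were tightly grouped and each was above 3 times the highest WT value. Pdgfra thus rose 3.75-fold, with an interval of 2.72 to 5.16 (log2 fold change 1.91 ± 0.21 SE, adjusted p = 1.36e-04). It was called in each of the 17 alternatives that tested it, with log2 fold changes of 0.52 on the log2(FPKM + 1) scale and up to 2.01 elsewhere. The annotated antisense genes Gm42802 and Gm42803 overlap Pdgfra, and 5.53% of the 32-base words of Pdgfra recur in other genes.

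Pdgfrb, the receptor for B chains and a pericyte marker, lies on chromosome 18 at 61045150 to 61085061. It had 1.59, 1.24 and 2.76 CPM in KO libraries and 1.27, 0.807 and 0.758 CPM in WT libraries. KO replicate 2 lay below WT replicate 1, so the groups overlapped. At 31 to 90 counts per library, the interval of its log2 fold change was wide (0.95 ± 0.37 SE, 0.13 to 1.77), and it was not called (adjusted p = 0.117), nor in any of 17 alternatives (adjusted p from 0.0657 to 0.422). KO replicate 3 was the highest library, and without it the log2 fold change was 0.58 (adjusted p = 0.422).

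Both PDGF receptors are genes of mesenchymal cells, and markers of such cells differed between the groups. Of 26 fibroblast and marrow stroma markers, which do not include the members, 23 were tested (1 only through KO libraries), 15 of them were called higher and 0 lower in KO, and their median log2 fold change was 1.21, against -0.011 over all tested genes. The collagen gene Col1a2 (log2 fold change 1.16, adjusted p = 6.08e-04) and the matrix proteoglycan Dcn (1.78, adjusted p = 5.63e-06) were among those that rose. The list summed to 577 to 697 CPM in KO libraries and 261 to 299 CPM in WT libraries. No gene of the list was at 0 in all libraries, and Mfap5 had at most 3 counts in any. Per 1000 CPM of these markers, Pdgfra had 8.18 to 9.50 CPM in KO libraries and 4.14 to 6.09 CPM in WT libraries, which did not overlap, whereas Pdgfrb had 2.14 to 4.16 CPM in KO and 2.53 to 4.44 CPM in WT libraries, which did. Pdgfa, on the same measure, had 11.8 to 17.3 CPM in KO and 11.3 to 19.5 CPM in WT libraries and also overlapped. The measure depends on which markers weigh most in the sum. Col1a2 and Dcn, among the list's genes of highest FPKM, rose by unlike amounts. The log2 fold change of Pdgfra (1.91) was above both of theirs and above the list's median of 1.21. Pericyte and smooth muscle markers summed to 9.84 to 10.9 CPM in KO and 6.50 to 8.02 CPM in WT libraries, with 1 of 5 tested genes called higher and 0 lower, and 4 of 13 genes (Myh11, Abcc9, Higd1b and Lmod1) had at most 3 counts in any library. Of the other lists, neutrophil markers summed to 1102 to 1462 CPM in KO and 1155 to 1564 CPM in WT libraries, with 2 of 12 called higher and 3 lower. Dendritic cell markers summed to 0.887 to 1.19 CPM in KO and 1.12 to 1.64 CPM in WT libraries, which overlapped. Lymphocyte markers summed to 13.7 to 15.0 CPM in KO and 18.2 to 20.2 CPM in WT libraries, lower in KO without overlap. Only 1 dendritic cell gene and 2 lymphocyte genes were tested, and 0 were called in either direction by edgeR. In bulk RNA, more cells of a type and more RNA per cell cannot be told apart, and the part of these cells in the values of Pdgfa, Pdgfra, Pdgfrb and Vegfc was not tested.

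**Figure D3:**
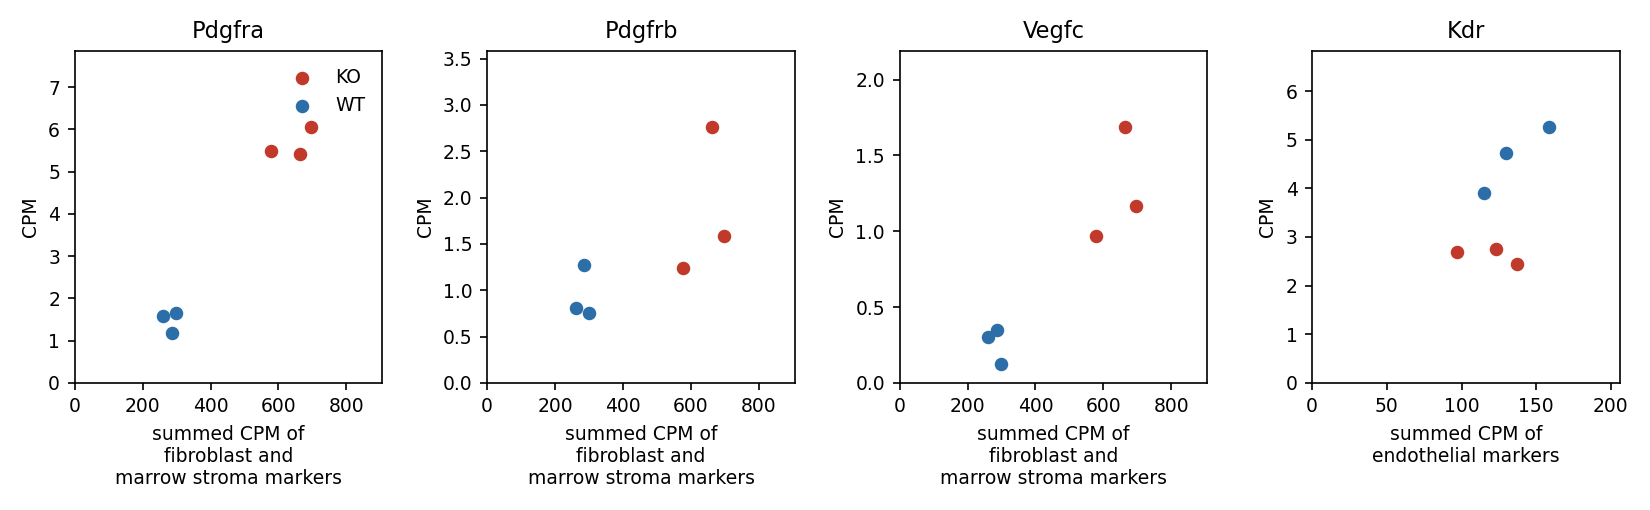
CPM of Pdgfra, Pdgfrb and Vegfc against the summed CPM of 26 fibroblast and marrow stroma markers, and of Kdr against that of 15 endothelial markers, with 1 point per library (red KO, blue WT). The KO libraries lie at 577 to 697 CPM of stroma markers and the WT libraries at 261 to 299 CPM, while the endothelial sums of the groups overlap.

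Among VEGF ligands, Vegfa was lower and Vegfc higher in KO, and Vegfb, the highest of them by FPKM, did not pass the test. By counts, which are not divided by gene length, Vegfa made up a mean of 53.0% and Vegfb 46.3% of the VEGF ligands in WT libraries. In KO libraries these means were 45.3% and 51.2%. Vegfa, the main driver of vessel growth, lies on chromosome 17 at 46016993 to 46032369. It had 16.0, 15.1 and 16.9 CPM in KO libraries, against 20.4, 26.2 and 18.8 CPM in WT libraries. All KO values lay below the lowest WT value, and the WT libraries varied more among themselves than the KO libraries. In KO libraries the level was 0.723 of that in WT libraries, with an interval of 0.588 to 0.888 (log2 fold change -0.47 ± 0.14 SE, adjusted p = 0.0393). This call lay close to the threshold. It was lost under 11 of 18 alternatives, with the direction unchanged in each: without KO replicate 1 (adjusted p = 0.132), KO replicate 2 (0.0780), KO replicate 3 (0.0968), WT replicate 1 (0.0706) or WT replicate 2 (0.179, with a log2 fold change of -0.31), and under 6 other settings. The table counts all transcripts of the gene together, so splice forms of Vegfa were not distinguished.

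Vegfb, which binds Flt1 and is known for roles in heart and in fatty acid uptake, lies on chromosome 19 at 6982473 to 6987651. It had 21.4, 13.3 and 20.8 CPM in KO libraries and 16.6, 17.8 and 22.6 CPM in WT libraries. KO replicate 2 was the lowest and WT replicate 3 the highest of the 6, the same libraries that stood apart across all genes. Vegfb was not called (log2 fold change -0.069 ± 0.18 SE, adjusted p = 0.851), with an interval of -0.46 to 0.32. Without these 2 libraries it was 0.25 (adjusted p = 0.147), with the sign turned.

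Vegfc, the ligand of Flt4 and a driver of lymphatic vessel growth, lies on chromosome 8 at 54077606 to 54187096. It had 41, 36 and 55 counts in KO libraries, against 12, 12 and 5 counts in WT libraries. The corresponding levels were 1.16, 0.967 and 1.69 CPM in KO libraries and 0.346, 0.303 and 0.122 CPM in WT libraries, without overlap. Vegfc rose 4.86-fold, with a wide interval of 2.40 to 9.84 (log2 fold change 2.28 ± 0.46 SE, adjusted p = 0.00705). It was called in each of the 16 alternatives that tested it, although a low gene enters the test here only because KO libraries are high. Per 1000 CPM of fibroblast and stroma markers, Vegfc had 1.67 to 2.54 CPM in KO libraries and 0.408 to 1.21 CPM in WT libraries. This measure, too, depends on which markers weigh most in the sum. As a share of the 3 VEGF ligands, Vegfc made up 3.57 ± 0.651% of FPKM in KO and 0.701 ± 0.371% in WT libraries (SD, n = 3; exact permutation test p = 0.1). The sum of VEGF ligands was 18.9 ± 3.83 FPKM in KO and 20.2 ± 2.08 FPKM in WT libraries (SD, n = 3; exact permutation test p = 0.7). Vegfa made up 20.7 ± 3.63% of that sum in KO and 26.1 ± 5.33% in WT libraries (p = 0.2 in the same exact test), and Vegfb 75.7 ± 3.75% in KO and 73.2 ± 5.63% in WT libraries (p = 0.7 in the same exact test). The Vegfb difference of 2.49 percentage points was 0.072 without WT replicate 2, 0.888 without KO replicate 1, 4.56 without KO replicate 2 and 5.58 without WT replicate 3, and the Vegfa difference of -5.36 was -2.98 without WT replicate 2 and -8.24 without WT replicate 3.

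Of the VEGF receptors, Kdr fell and Flt1 was not called. Kdr, the main signalling receptor for Vegfa on endothelial cells, lies on chromosome 5 at 75932827 to 75978458, on the same chromosome as Pdgfra but with the opposite direction of change. It had 2.44, 2.69 and 2.76 CPM in KO libraries, against 4.73, 3.91 and 5.25 CPM in WT libraries. The groups did not overlap. Kdr stood in KO libraries at 0.559 of its WT level, with an interval of 0.412 to 0.758 (log2 fold change -0.84 ± 0.20 SE, adjusted p = 0.0164). The call was lost without KO replicate 1 (adjusted p = 0.0698), KO replicate 3 (0.0526), WT replicate 1 (0.0516) or WT replicate 3 (0.0600), with log2 fold changes of -0.72 to -0.85, and it was kept under the other 13 alternatives.

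Flt1, which binds Vegfa and Vegfb with high affinity and also exists as a soluble decoy, lies on chromosome 5 at 147561604 to 147726011. It had 38, 17 and 22 counts in KO libraries and 21, 36 and 37 counts in WT libraries, or 1.08, 0.457 and 0.674 CPM in KO and 0.605, 0.908 and 0.904 CPM in WT libraries. The groups overlapped widely. Flt1 was not called (log2 fold change -0.16 ± 0.42 SE, adjusted p = 0.850), and at this depth its interval ran from -1.07 to 0.75. Without KO replicate 2 the log2 fold change was 0.083 (adjusted p = 0.931).

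Endothelial markers, 15 genes without the members, summed to 97.1 to 137 CPM in KO libraries and 115 to 159 CPM in WT libraries, which overlapped. Of 10 tested genes (1 only through WT libraries), 0 were called higher and 2 lower, and the median log2 fold change was -0.13. The called genes were the receptor kinase Tie1 and the transcription factor Erg, which moved in the same direction as Kdr. Tie1 had 1.02, 0.806 and 1.32 CPM in KO libraries, against 2.71, 2.98 and 3.35 CPM in WT libraries (log2 fold change -1.55 ± 0.27 SE, adjusted p = 0.00274). Erg had 0.501 ± 0.0826 CPM in KO and 1.32 ± 0.346 CPM in WT libraries (SD, n = 3; log2 fold change -1.41, adjusted p = 0.0283 in edgeR). Most of the list's sum came from Eng and Vwf. The junction genes were low, with Cdh5 at 0.735 to 1.02 CPM in KO and 0.904 to 0.922 CPM in WT libraries. Cldn5 had 0 counts in each WT library but more than 3 counts in at least 1 KO library, the opposite direction to Kdr, and was not tested. Per 1000 CPM of endothelial markers, Kdr had 17.8 to 27.7 CPM in KO libraries and 33.1 to 36.4 CPM in WT libraries, without overlap. This measure follows Eng and Vwf most. The log2 fold change of Kdr (-0.84) was larger in size than the list's median but smaller than those of Tie1 and Erg. For Pdgfb, which endothelial cells and megakaryocytes also make, the value was 51.2 to 56.6 CPM in KO and 78.2 to 102 CPM in WT libraries per 1000 CPM of endothelial markers. Megakaryocyte and platelet markers summed to 410 to 447 CPM in KO and 330 to 427 CPM in WT libraries, with 1 of 10 tested genes called in each direction. Per 1000 CPM of these, Pdgfb had 11.2 to 18.7 CPM in KO and 27.7 to 37.5 CPM in WT libraries. The part of such cells in the values of Kdr and Pdgfb was not tested.

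**Figure D4:**
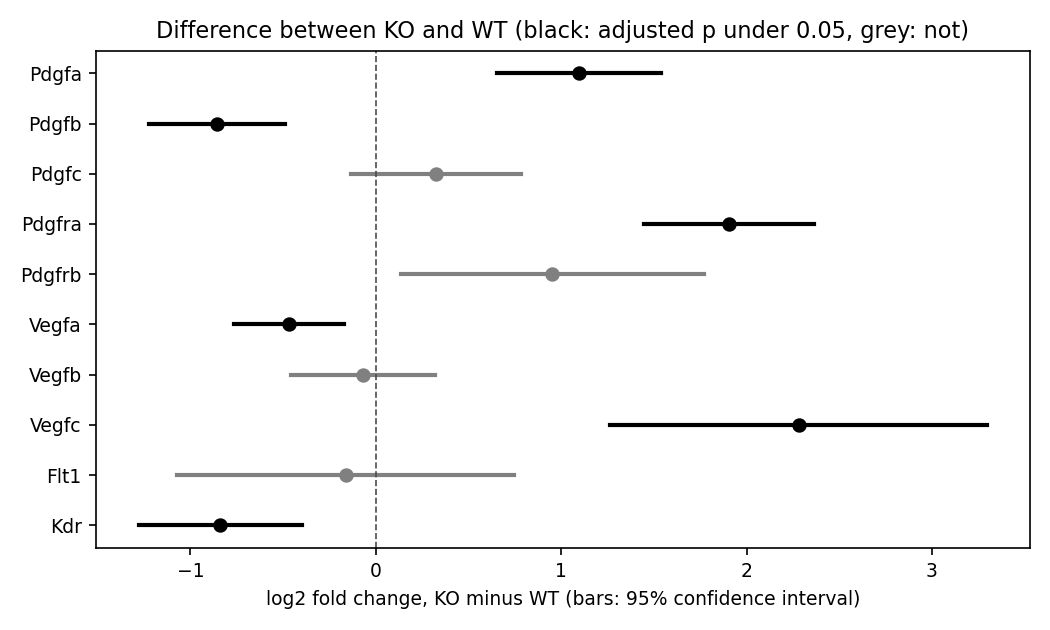
Log2 fold change (KO minus WT) of each member in edgeR, with bars for the 95% confidence interval; black marks an adjusted p under 0.05 and grey the rest. Pdgfa (1.10), Pdgfra (1.91) and Vegfc (2.28) lie right of 0, and Pdgfb (-0.86), Vegfa (-0.47) and Kdr (-0.84) left of it.

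The other genes of both pathways were read from 5 lists. Of further ligands, co-receptors and decoys, 7 of 10 genes were tested, 2 were called higher and 0 lower in KO, with a median log2 fold change of 1.36. That median rests partly on 3 genes (Pdgfrl, Sema3a and Sema3c) that passed the filter only through KO libraries. The called genes were the semaphorins Sema3f, which binds Nrp2, and Sema3c. Sema3f had 4.13 ± 0.962 CPM in KO and 1.47 ± 0.600 CPM in WT libraries (SD, n = 3; log2 fold change 1.45, adjusted p = 0.00968 in edgeR). Sema3c had a log2 fold change of 1.81 (adjusted p = 0.0136), and its call was lost without KO replicate 1 (adjusted p = 0.0574). The neuropilin co-receptors, singled out after their values were seen, stood far above the receptor tyrosine kinases. Nrp1 had 10.8 ± 0.584 FPKM in KO and 10.8 ± 0.762 FPKM in WT libraries, and Nrp2 27.2 ± 3.69 FPKM in KO and 26.2 ± 4.41 FPKM in WT libraries (SD, n = 3). Their log2 fold changes were -0.020 (interval -0.24 to 0.20, adjusted p = 0.926) and 0.027 (interval -0.27 to 0.33, adjusted p = 0.927). Flt4, the receptor of Vegfc and likewise singled out, had 13 to 19 counts in KO and 13 to 33 counts in WT libraries. It was not called (log2 fold change -0.25, interval -1.30 to 0.80, adjusted p = 0.790 in edgeR).

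Among genes that process or release these ligands, 3 of 9 tested genes were called higher and 0 lower, with a median log2 fold change of 0.00075. Ccbe1, which is known to promote the proteolytic activation of Vegfc, had 22.5, 17.6 and 22.3 CPM in KO libraries, against 4.41, 4.26 and 5.38 CPM in WT libraries. The groups were well separated. Ccbe1 thus rose by 2.12 ± 0.15 SE on the log2 scale (adjusted p = 5.64e-06). Bmp1, a procollagen proteinase, had a log2 fold change of 0.77 (adjusted p = 0.00378). These are secreted products of mesenchymal cells as well, and the stroma marker sum of 577 to 697 CPM in KO and 261 to 299 CPM in WT libraries moved with them, a part that was not tested.

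Of receptor signalling genes shared by both families, 0 of 24 tested genes were called higher and 1 lower, with a median log2 fold change of -0.095. The called gene was the kinase Mapk3 (-0.31, adjusted p = 0.0396), whose call was lost when any 1 of the 6 libraries was left out (adjusted p of up to 0.144). In the hypoxia-inducible factor list, 4 of 25 tested genes were called higher and 3 lower, with a median of 0.069. Among the tested genes of this list, Ankrd37 passed the filter only through KO libraries. Adm, which encodes a vasodilator peptide, rose by 1.91 ± 0.31 SE on the log2 scale (adjusted p = 0.00191), and P4ha2, a collagen prolyl hydroxylase, by 1.81 ± 0.24 SE (adjusted p = 4.76e-04), in the opposite direction to Vegfa. Pfkfb4 (-0.37, adjusted p = 0.0236) and Ndrg1 (-0.48, adjusted p = 0.0302) fell, but their calls were lost without KO replicates 1 or 3 or WT replicates 1 or 2, and that of Ndrg1 also without WT replicate 3 (adjusted p of up to 0.128 and 0.123). In the list of other angiogenic factors and inhibitors, 9 of 20 tested genes were called higher and 1 lower, with a median of 0.58. Among those tested, Fgf1 passed the filter only through KO libraries. The gene that fell was Tie1, described above. Of its 22 genes, Cxcl12 is also a stroma marker, and Tie1 and Tek are also endothelial markers. The stroma marker sum moved with the genes that rose, at 577 to 697 CPM in KO and 261 to 299 CPM in WT libraries, and its part in them was not tested. Serpinf1, an inhibitor of angiogenesis (1.8 ± 0.16 SE, adjusted p = 2.75e-05), the matricellular genes Ccn2 (1.46, adjusted p = 3.39e-05) and Spp1 (1.16, adjusted p = 2.35e-04), and Ecm1 (1.27, adjusted p = 1.41e-04) rose. Spp1 had 611 ± 7.28 CPM in KO and 271 ± 61.2 CPM in WT libraries (SD, n = 3). Over the 5 lists, called genes numbered 23 with 6 libraries, and 15 without KO replicate 1.

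Genes whose log2(CPM + 0.5) most resembled each called member over the 6 libraries were named as a description, among about 8976 genes of at least 5 CPM. They were Nr2c2ap and Hyal2 for Pdgfa (Pearson's r = 0.995 and 0.992), Pim1 for Pdgfb (0.999), and Tspan32 and Ccnd1 for Pdgfra (1.00 and 0.999). They were Vamp4 and Rdh14 for Vegfa (0.989 and 0.987), Tfpi and Fpgs for Vegfc (0.993 and 0.991), and Scamp5 and Ano10 for Kdr (0.998 and 0.996). The points share their libraries and the difference between groups, and 52 to 276 genes reached an r of 0.95 with each of these members.

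**Figure D5:**
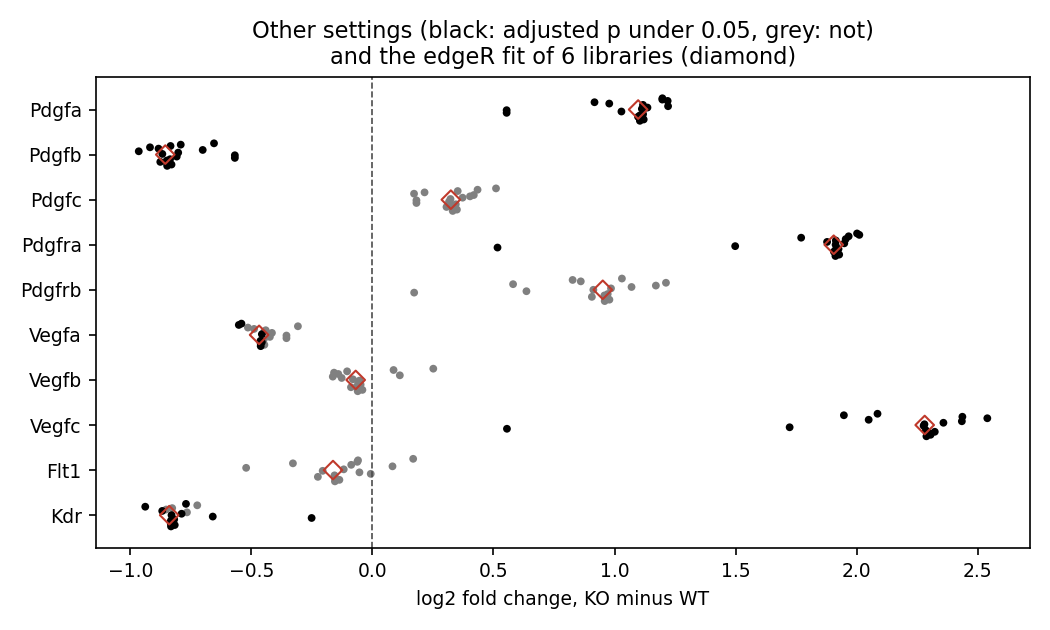
Log2 fold change (KO minus WT) of each member under each alternative setting (black where adjusted p was under 0.05, grey otherwise), with a red diamond for edgeR on the 6 libraries. Pdgfa, Pdgfb, Pdgfra and Vegfc are black throughout, Vegfa is grey in 11 of 18 settings and Kdr in 4, and the leftmost points of Pdgfa, Pdgfra and Vegfc, at 0.52 to 0.56, come from the log2(FPKM + 1) scale.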

How the data were processed

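RNA from LPS-treated macrophages was sequenced from strand-specific libraries of total RNA, per the labels' protocols. Whole-number counts for each gene and, in a separate table, FPKM were deposited by the authors. Tools listed in the submitters' processing notes are HTSeq, HISAT2 and fastp, with build mm10; neither versions nor a strand setting are stated in the sources at hand. Where a gene had 10 or more counts, 99.99% of FPKM values lay within 1% of the count divided by gene length and column total. Groups came from sample titles. The main test was edgeR's quasi-likelihood F test (version 4.0.16, R 4.3.3) after filterByExpr and TMM, with Benjamini-Hochberg adjustment, and the script was tested on simulated data. Log2 fold changes are KO minus WT, and the standard error is their size over the square root of F. Alternatives used other scalings and filters, DESeq2 1.42.0, limma 3.58.1, a length trend, a replicate block and omitted libraries. Positions and antisense genes came from GENCODE M21, promoters from RefSeq. Of 205 list entries, 200 matched, 3 through another symbol. Named genes were the members, up to 4 called genes of smallest adjusted p per pathway list, the highest marker genes, and those most like each called member. Of these, 2 genes are not reported here. Members, lists and tests were chosen with earlier results of these data known.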

Additional observations from a re-analysis of the deposited data

How the results depend on the processing

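The numbers of the replicates did not clearly pair the samples. Deviations from the group means correlated at -0.098, 0.23 and 0.18 for same-numbered libraries. KO replicates 2 and 3 correlated best with the WT library of the same number, but KO replicate 1 did so with WT replicate 3 (0.26). These weak correlations do not settle whether samples were paired. With a replicate block, 6 members were called, as without it, while calls over all genes went to 2526, against 1790, and those lower in KO to 1164, against 759. Called members numbered 4 to 6 under the other alternatives except limma-trend on log2(FPKM + 1) after dropping genes that miss 1 FPKM in 3 samples, where fewer members were tested and 2 were called, 1 higher and 1 lower. Leaving out 1 library gave 4 to 5 called members, 3 of them higher in each case and 1 to 2 lower, 1119 to 1741 calls over all genes, 704 to 1039 of them higher and 359 to 742 lower, and 15 to 20 calls over the 5 pathway lists. Without KO replicate 2 and WT replicate 3 there were 3186 calls over all genes (1681 higher and 1505 lower) and 35 over the lists; the cause was not tested. The log2 fold change of Vegfb turned to 0.11 without KO replicate 2, 0.087 without WT replicate 3 and 0.25 without both, and that of Flt1 to 0.083 without KO replicate 2 and 0.17 without both. With 1 library left out they ranged from -0.16 to 0.11 for Vegfb and from -0.52 to 0.083 for Flt1. With 1 library left out, the log2 fold change of Pdgfrb ranged from 0.58 to 1.21 and that of Pdgfc from 0.17 to 0.43. Ligand share differences kept their sign with each library left out and with shares of counts, but ranged with 1 library left out from 0.072 to 5.58 percentage points for Vegfb and from -8.24 to -2.98 for Vegfa; by shares of counts, that of Pdgfc was 3.63, against 7.21 by FPKM. Capns1 was called under each setting. Depth limits Flt1, Pdgfrb and Vegfc, which had 5 to 90 counts per library.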
